A study of Mus musculus with 33 samples.

Results

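The genes Myh1, Myh2, Myh3, Myh4, Myh8, Acta1, Ckm and Des, which encode contractile and metabolic proteins of skeletal muscle, were examined across all peak lists of a chromatin binding study in mouse C2C12 cells. Members were all peaks that overlapped 4 windows of mouse build mm9. The windows were fixed by coordinates, but they were chosen with earlier results of these data known. The Myh cluster window lay at chr11:66880000-67190000, the Acta1 window at chr8:126408000-126426000, the Ckm window at chr7:19985000-20012000 and the Des window at chr1:75345000-75372000. They held 118 of the 493022 nuclear peaks in all 23 lists. Of these, 106 of 409322 came from the 9 pooled or single lists and 12 of 83700 from the 14 replicate lists.

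C2C12 is a mouse myoblast line that proliferates as single cells and fuses into myotubes once serum is reduced. Growing myoblasts were profiled for ING1, Menin, MLL1, MLL3, Wdr5 and LSD1, and myotubes differentiated for 96 h were profiled for ING1, LSD1 and Sin3A. ING1 was recovered with an anti-FLAG antibody from stable lines that ectopically expressed Flag-tagged ING1 and had been selected with puromycin, so its peaks describe the tagged protein, and the number of clones in the lines is not stated. The other antibodies recognised the factor itself in C2C12 cells with no stated modification. Menin, MLL1, Sin3A and the myoblast ING1 had 2 replicate lists each, and Wdr5 and the myotube ING1 had 3. LSD1 in each state and MLL3 had 1 list each and so no replicate check. The series' design text places Sin3A and LSD1 in growing myoblasts, whereas the sample labels give Sin3A as myotubes and LSD1 in both states, and the sample labels were followed. The labels also describe 10 input and 6 RNA-seq samples, which were not analysed here, so the state of the cells was not checked against expressed markers. Whether replicates were separate cultures is not stated, so the spread between them may be technical.

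The Myh genes encode the myosin heavy chains that drive contraction: Myh3 the embryonic form, Myh8 the perinatal form, and Myh2, Myh1 and Myh4 the adult fast forms. Acta1 encodes skeletal muscle alpha-actin, the partner of myosin in the thin filament. Ckm encodes the muscle form of creatine kinase, which regenerates ATP for contraction, and Des encodes desmin, an intermediate filament protein that holds myofibrils in register and is already present in many myoblasts. As a class these genes are silent or weakly expressed in growing myoblasts and are induced as myotubes form. The mapped proteins act on methylation of histone H3 lysine 4, a mark of promoters and enhancers. MLL1 and MLL3 write the mark, Menin and Wdr5 are subunits of MLL complexes, LSD1 removes it, and ING1 binds its trimethylated form and recruits Sin3 histone deacetylase complexes, of which Sin3A is the scaffold. The series title names monomethylation of this residue and the partitioning of its readers.

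Promoter sequences are shown for the 3 genes with a window of their own and for the embryonic Myh3 and the adult Myh4 of the cluster, because these genes give the windows their names and the sequences show which binding motifs of muscle regulators they carry. They come from RefSeq on build GRCm38.p6, which matched all 8 genes, and cover 250 bases before and 50 after each annotated start, written 5′ to 3′ along the gene. Their coordinates are on another build than the peaks, so no peak was placed on or off a promoter. Capitals mark E-boxes, the letters CANNTG to which myogenic bHLH factors such as MyoD bind, CArG boxes, the site of serum response factor, and sites of the MEF2 consensus, all searched on both strands.
Acta1 promoter, chr8:123894726-123895025, minus strand: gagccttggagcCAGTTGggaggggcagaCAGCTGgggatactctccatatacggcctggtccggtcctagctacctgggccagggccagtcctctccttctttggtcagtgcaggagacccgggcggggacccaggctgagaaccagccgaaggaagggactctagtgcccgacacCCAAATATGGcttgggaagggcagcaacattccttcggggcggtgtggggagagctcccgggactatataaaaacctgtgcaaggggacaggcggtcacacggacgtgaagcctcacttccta
Des promoter, chr1:75360042-75360341, plus strand: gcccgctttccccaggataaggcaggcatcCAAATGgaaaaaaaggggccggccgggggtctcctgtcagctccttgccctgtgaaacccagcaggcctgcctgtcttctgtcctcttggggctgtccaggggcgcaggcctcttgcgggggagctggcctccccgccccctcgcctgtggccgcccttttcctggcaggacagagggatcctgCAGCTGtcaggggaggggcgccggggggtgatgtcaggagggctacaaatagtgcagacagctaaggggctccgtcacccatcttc
Ckm promoter, chr7:19410844-19411143, plus strand: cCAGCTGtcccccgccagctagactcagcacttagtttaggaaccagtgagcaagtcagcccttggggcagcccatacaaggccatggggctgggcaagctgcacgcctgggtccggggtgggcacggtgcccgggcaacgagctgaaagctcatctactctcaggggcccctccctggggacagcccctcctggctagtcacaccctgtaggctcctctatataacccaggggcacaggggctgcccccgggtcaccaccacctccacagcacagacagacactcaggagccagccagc
Myh3 promoter, chr11:67078050-67078349, plus strand: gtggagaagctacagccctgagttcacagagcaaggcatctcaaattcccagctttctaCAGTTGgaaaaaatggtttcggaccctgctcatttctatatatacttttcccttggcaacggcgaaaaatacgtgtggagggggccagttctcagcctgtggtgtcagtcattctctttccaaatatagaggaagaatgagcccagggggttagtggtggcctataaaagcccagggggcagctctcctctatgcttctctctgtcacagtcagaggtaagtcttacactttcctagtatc
Myh4 promoter, chr11:67237562-67237861, plus strand: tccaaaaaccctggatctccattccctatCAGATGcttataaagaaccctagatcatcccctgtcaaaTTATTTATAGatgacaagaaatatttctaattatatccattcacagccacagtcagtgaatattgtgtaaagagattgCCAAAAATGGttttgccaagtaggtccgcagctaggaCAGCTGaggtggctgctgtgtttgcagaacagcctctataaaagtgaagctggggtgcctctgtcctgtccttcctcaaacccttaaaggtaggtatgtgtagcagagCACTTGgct

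An E-box was found in 6 of the 8 member promoters, in all but Myh2 and Myh1, and in 72.3% of the 32851 RefSeq promoters of the same length. A CArG box was found in 2 members, Acta1 and Myh4, and in 1.63% of all promoters. The MEF2 consensus was found in 3 members, Myh1, Myh4 and Myh8, and in 3.19% of all promoters. The Des promoter held 2 E-boxes, the nearer of which began 36 bases before the start, and the Ckm promoter held 1, which began 249 bases before it. No 2 marked motifs in these promoters overlapped. A match of letters is a description of the sequence and not of binding.

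In myoblasts neither the reader ING1 nor the eraser LSD1 was listed at these genes, while MLL3 and Wdr5 were listed at 3 of the 4 windows. ING1 had 0 peaks in the Myh, Acta1, Ckm and Des windows, and LSD1 also had 0 in each. MLL1 had 1 peak, in the Myh window. Menin had 5 peaks, all in the Des window, and 0 at Myh, Acta1 and Ckm. Wdr5 had 7 peaks at Myh, 3 at Acta1, 0 at Ckm and 4 at Des. MLL3 had 53 peaks at Myh, 4 at Acta1, 0 at Ckm and 2 at Des. For scale, the chromosomes were cut into 95216 adjoining tiles of 27 kb, the length of the Ckm and Des windows. At least 1 peak lay in 6.92% of tiles for ING1 in myoblasts, 3.90% for LSD1 in myoblasts, 7.37% for MLL1, 26.3% for Menin, 38.9% for Wdr5 and 68.0% for MLL3. An empty window was therefore the usual state for ING1, LSD1 and MLL1, and the absence of ING1 and LSD1 from these windows is near that background.

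In myotubes all 3 mapped proteins were listed at the Myh, Acta1 and Des windows. ING1 had 2 peaks at Myh, 4 at Acta1, 0 at Ckm and 2 at Des. Sin3A had 2, 3, 1 and 3 peaks in the same windows, and LSD1 had 5, 2, 1 and 2. The share of 27 kb tiles with at least 1 peak was 7.83% for ING1 in myotubes, 8.18% for LSD1 and 11.5% for Sin3A. The Acta1 window is 18 kb long, shorter than these tiles, and the Myh window of 310 kb is longer. Per tile of 310 kb the median and 90th percentile were 0 and 4 peaks for ING1 in myotubes, 0 and 6 for LSD1 and 1 and 5 for Sin3A. The Myh counts of 2, 5 and 2 were thus above the median tile of all chromosomes and below the 90th percentile. Chromosome 11 is covered more densely than all chromosomes together, however. ING1 covered 0.272% of the Myh window against 0.636% of chromosome 11, LSD1 1.1% against 1.01% and Sin3A 1.03% against 0.894%. Tiles are not independent samples, and no test was made of the windows against them.

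**Figure D1:**
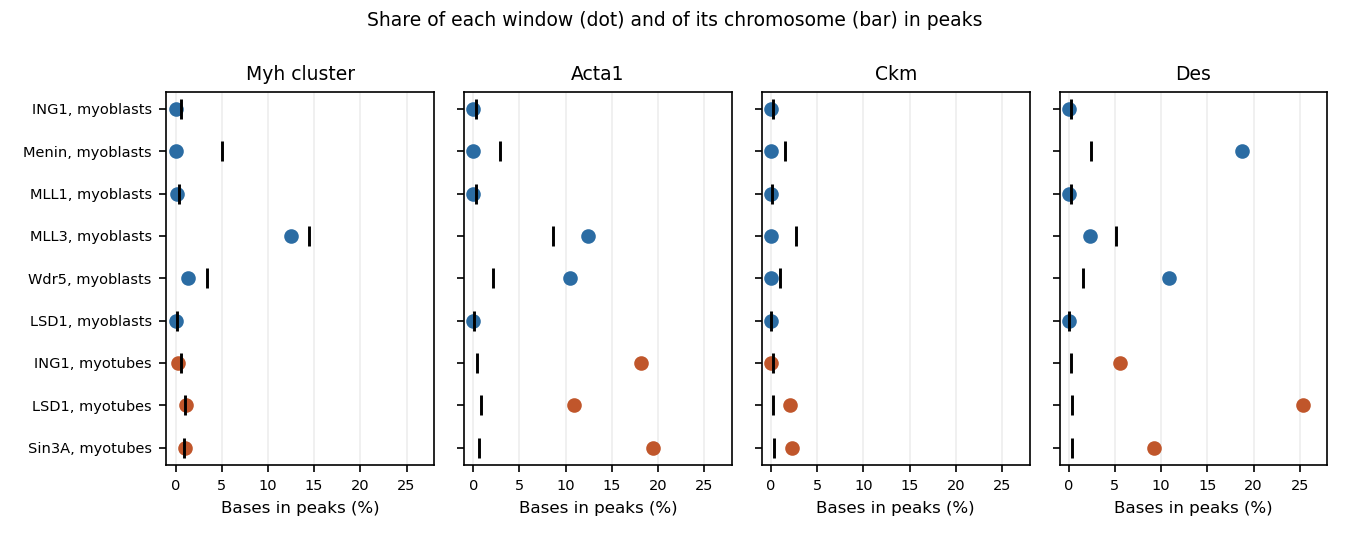
Percent of bases inside peaks, on the horizontal axis, for each of the 9 pooled or single lists in each of the 4 windows (dots, blue for myoblasts and orange for myotubes) and over the chromosome that holds the window (black bars). The myotube lists cover 5.56% to 25.4% of the Acta1 and Des windows against under 1% of chromosomes 8 and 1. In windows this short 1 peak alone can exceed the chromosome share, as the single Sin3A peak at Ckm does with 2.29% against 0.349%. Coverage over tiles of equal length was not taken. Dense coverage is not confined to myotubes. In myoblasts, Menin covers 18.7% of the Des window and Wdr5 10.8%, against 2.45% and 1.54% of chromosome 1. Wdr5 and MLL3 also cover more of the Acta1 window than of chromosome 8, where Menin has no peak. ING1, MLL1 and LSD1 of myoblasts have no peak in either window. MLL3 covers less of the Myh and Des windows than of chromosomes 11 and 1, and Ckm holds LSD1 and Sin3A of myotubes alone.

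ING1 was the one factor with replicate lists in both states. The myoblast replicate lists held 0 and 0 peaks in the 4 windows, among 428 and 5528 peaks in all. The myotube replicate lists held 2, 0 and 0, among 2163, 2502 and 126 peaks. The myoblast mean was 0 ± 0 peaks (SD, n = 2). The myotube mean was 0.667 ± 1.15 peaks (SD, n = 3), and a two-sided exact permutation test of the difference gave p = 1. As a share of each list the means were 0% and 0.0308% ± 0.0534 (SD, n = 3; exact permutation p = 1). The smallest p that 2 against 3 lists allow is 0.2 when no values are tied. Here every list but myotube replicate 1 held 0 peaks, so the test could not reach that value and tells nothing about the difference. The replicate lists overlapped between states because 2 of the 3 myotube lists were empty here. Both replicate peaks, at Acta1 and at Des, came from myotube replicate 1, and without it the difference was 0.

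The pooled ING1 lists were of similar length, 8196 peaks in myoblasts and 9698 in myotubes. Over the whole list, 62.1% of the 9698 myotube peaks overlapped an ING1 myoblast peak. None of the 8 myotube peaks in the windows could do so, because no ING1 myoblast peak lay there. The nearest ING1 myoblast peak lay 24.1 kb outside the Acta1 window, 39.0 kb outside Ckm, 98.8 kb outside Des and 590 kb outside the Myh window. A peak of at least 1 myotube replicate list was met by 2 of the 8 window peaks, against 32.7% of all pooled myotube peaks. Limits and intervals on shares of peaks cover counting error only, and peaks of 1 window are not independent of each other.

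LSD1, the demethylase, was listed at every window in myotubes and at none in myoblasts, with 10 peaks against 0. With no myoblast peak in the windows none of the 10 could overlap one, and over all 16504 myotube peaks the share that did was 11.5%. The myotube list was the longer one, 16504 against 4442 peaks, so more windows of any kind would hold a myotube peak. Among the 4442 widest myotube peaks, as many as the myoblast list holds, 4 lay in the windows, 2 at Des, 1 at Acta1 and 1 at Myh. The nearest LSD1 myoblast peak lay 6.88 kb outside the Des window, 13.6 kb outside Myh, 47.5 kb outside Acta1 and 322 kb outside Ckm. Each state has 1 list, so the difference has no replicate check.

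At Acta1 the myotube factors were stacked on a single stretch of 3739 bp, from 126414737 to 126418475 on chromosome 8. ING1 covered 87.1% of it in 4 peaks, Sin3A 83.7% in 2 peaks and LSD1 52.4% in 2 peaks. The stretch was drawn by joining these overlapping peaks, and both of its ends are ends of ING1 peaks. High coverage therefore follows in part from how it was drawn. In myoblasts the same stretch held 2 Wdr5 peaks, on 28.8% of it, and 1 MLL3 peak, on 12.4%, and no ING1, Menin, MLL1 or LSD1 peak. The widest Sin3A peak of the window ran over 2478 bp from 126415863 to 126418340 and met ING1, LSD1 and Wdr5 peaks. The widest LSD1 peak, 1234 bp from 126416536 to 126417769, lay wholly inside it. ING1 had its widest peak, 1077 bp, at 126414737 to 126415813, and this peak contained the whole MLL3 peak at 126414813 to 126415277.

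The replicate lists gave part of this Acta1 stretch. Sin3A replicate 1 held 3 peaks there and replicate 2, a list of 430 peaks, held 0. ING1 myotube replicate 1 held 1 peak of 459 bp at 126417716 to 126418174, and replicates 2 and 3 held 0. All 3 Wdr5 replicate lists were empty in the window. Outside the stretch, MLL3 had 3 further peaks, the widest of 645 bp at 126409302 to 126409946, Wdr5 had its widest peak of 804 bp at 126424178 to 126424981, and Sin3A had a peak of 380 bp at 126420044 to 126420423.

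At Des a longer stretch of 8770 bp, from 75355825 to 75364594 on chromosome 1, held peaks of 6 of the 9 lists. MLL3 joined it by an overlap of 29 bp only. How often stretches with this many lists occur elsewhere on the chromosomes was not counted, here or for Acta1. LSD1 of myotubes covered 78.1% of the stretch, Menin of myoblasts 52.3%, Sin3A 28.4%, ING1 of myotubes 17.1%, Wdr5 15.0% and MLL3 4.93%. The stretch was joined from these same peaks, so its length and these shares depend on the widest of them. The LSD1 peak of 5690 bp, from 75358502 to 75364191, was the widest peak of any list in the 4 windows, and it spanned 3 whole Menin peaks of myoblasts. The widest Menin peak, 2074 bp from 75355825 to 75357898, met Wdr5 of myoblasts and ING1, LSD1 and Sin3A of myotubes. It contained the whole Wdr5 peak at 75356574 to 75357565 and the whole Sin3A peak at 75356711 to 75357568. The ING1 peak of 992 bp at 75356917 to 75357908 had 99.0% of its bases within it. Des was thus the window where Menin of myoblasts and the myotube reader and eraser were listed at the same bases.

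This Menin peak was the one myoblast peak of the windows that a replicate list also held, among the factors with replicates. Menin replicate 1 listed it from 75355825 to 75357880 and replicate 2 from 75356738 to 75357523. None of the other 4 Menin peaks at Des met a replicate list, so 1 of 5 did, against 28.9% of all Menin pooled peaks. ING1 myotube replicate 1 held a peak of 510 bp at 75356917 to 75357426, inside the replicated Menin peak, and replicates 2 and 3 held none. Sin3A replicate 1 held 2 peaks at Des, of 824 and 1255 bp, and replicate 2 held 0. MLL3 had its wider Des peak at 75364163 to 75364594, of which 29 bp met the end of the long LSD1 peak. The widest Wdr5 peak, 997 bp from 75353740 to 75354736, met no other list.

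**Figure D2:**
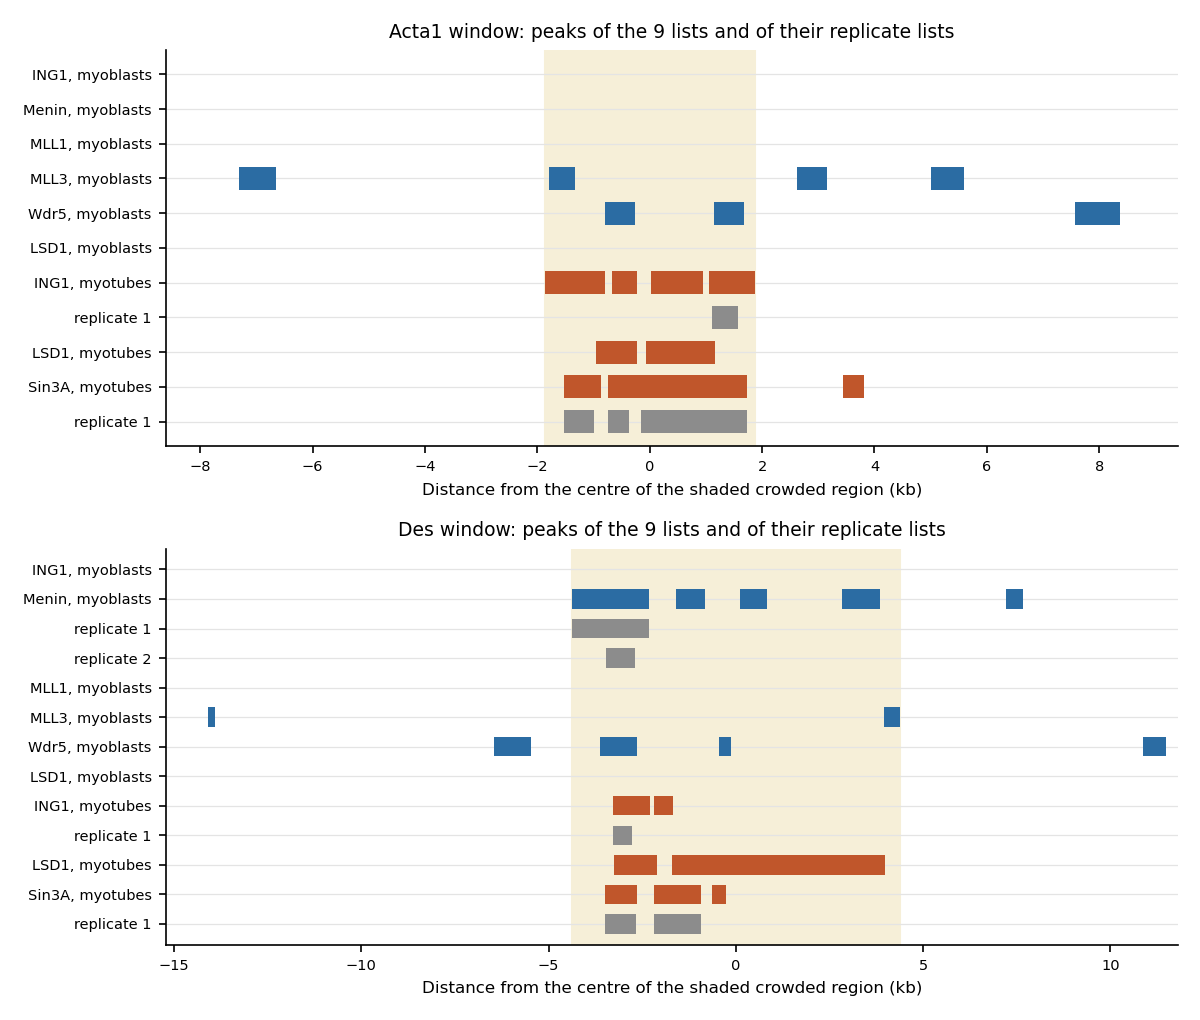
Peaks in the Acta1 window (upper panel) and the Des window (lower panel), drawn to scale as distance in kb from the centre of the shaded stretch where lists overlap (3739 bp at Acta1, 8770 bp at Des). Blue blocks are pooled or single myoblast lists, orange blocks are myotube lists and grey blocks are replicate lists with a peak there. ING1, LSD1 and Sin3A of myotubes gather in the shaded stretches. Of the myoblast lists, Wdr5 and MLL3 have peaks in both stretches, and Menin has peaks in that of Des and not in that of Acta1.

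Ckm was the emptiest window. Sin3A had 1 peak of 617 bp at 19996176 to 19996792 on chromosome 7, and LSD1 of myotubes had 1 peak of 558 bp at 20000614 to 20001171. They did not overlap, and the Sin3A peak met neither replicate list. The nearest MLL3 peak lay 1.29 kb outside the window, the nearest Menin peak 16.8 kb, the nearest ING1 myotube peak 16.9 kb and the nearest Wdr5 peak 17.0 kb. Every list covered less of chromosome 7 than of all chromosomes together, for example 2.75% against 6.60% for MLL3.

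The Myh cluster held 53 MLL3 peaks in myoblasts and at most 7 of any other factor. In the RefSeq order of GRCm38.p6 the genes follow one another as Myh3, Myh2, Myh1, Myh4 and Myh8 on the plus strand, but peaks could not be assigned to single genes on mm9. The 53 MLL3 peaks were 299 to 2117 bp wide, with a median of 663 bp, and neighbouring peaks were a median of 2890 bp apart. The widest lay at 67067208 to 67069324 on chromosome 11. MLL3 covered 12.5% of the window, 1.89 times its 6.60% of all chromosomes. Chromosome 11 as a whole was covered to 14.5%, however, and its 383 tiles of 310 kb held a median of 54 MLL3 peaks, with 12.2 and 89 at the 10th and 90th percentiles. The density of MLL3 at the Myh genes was therefore near the middle of the range of its chromosome.

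Of the other myoblast factors, Menin had 0 peaks in the Myh window, against a median of 3 and a 90th percentile of 25 per 310 kb tile of all chromosomes. Wdr5 had 7 against a median of 6, the widest at 66907047 to 66907900 with 854 bp. MLL1 had 1 peak, of 652 bp at 66921714 to 66922365, against a median of 0. None of these 8 peaks met a replicate list of its factor. By bases, Menin covered 0% of the window against 5.07% of chromosome 11, Wdr5 1.39% against 3.38% and MLL1 0.21% against 0.42%. Of the Wdr5 peaks, those at 67004394 to 67005071 and at 67140802 to 67141311 overlapped MLL3 peaks.

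The pooled or single myotube peaks of the Myh window lay in its first 62 kb, at the low-coordinate end, while Sin3A replicate 1 listed 1 further peak outside it, at 67013584 to 67014367. When the window was divided into 5 parts of 62 kb, that part held the 2 ING1, 5 LSD1 and 2 Sin3A pooled peaks and the other 4 parts held 0 of each. MLL3 peaks numbered 16, 11, 5, 8 and 13 over the same parts. Sin3A had a broad peak of 2939 bp from 66892204 to 66895142, and both ING1 peaks lay wholly inside it, together with 3 whole MLL3 peaks of myoblasts. The ING1 peak of myotubes at 66893493 to 66893956 and the MLL3 peak of myoblasts at 66893504 to 66893959 shared 453 bp, 97.6% of the former and 99.3% of the latter. The other ING1 peak, at 66892378 to 66892757, shared 336 bp with an MLL3 peak. Sin3A replicate 1 listed 2 peaks inside the broad one, of 959 and 690 bp. Neither ING1 peak met a replicate list.

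LSD1 took a different place from ING1 and Sin3A in the cluster. Its 5 myotube peaks stood between 66896418 and 66908599, and none met an ING1, Sin3A or MLL3 peak. They fell inside a gap of 21.4 kb between MLL3 peaks, from 66894808 to 66916176, the third longest gap of the window. The widest, 1017 bp, lay at 66900164 to 66901180, and those at 66906844 to 66907364 and 66907829 to 66908599 overlapped 1 Wdr5 peak of myoblasts. At Acta1 and Des, in contrast, all 4 LSD1 peaks overlapped both ING1 and Sin3A. The long LSD1 peak at Des, from 75358502 to 75364191, met ING1 by 23 bp only, however. With at least 50% of the shorter peak shared, 30% of the LSD1 peaks in the 4 windows met ING1 and 40% met Sin3A. Whole-list shares were not computed under that rule. LSD1 has a single myotube list, and the difference in layout was not tested.

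**Figure D3:**
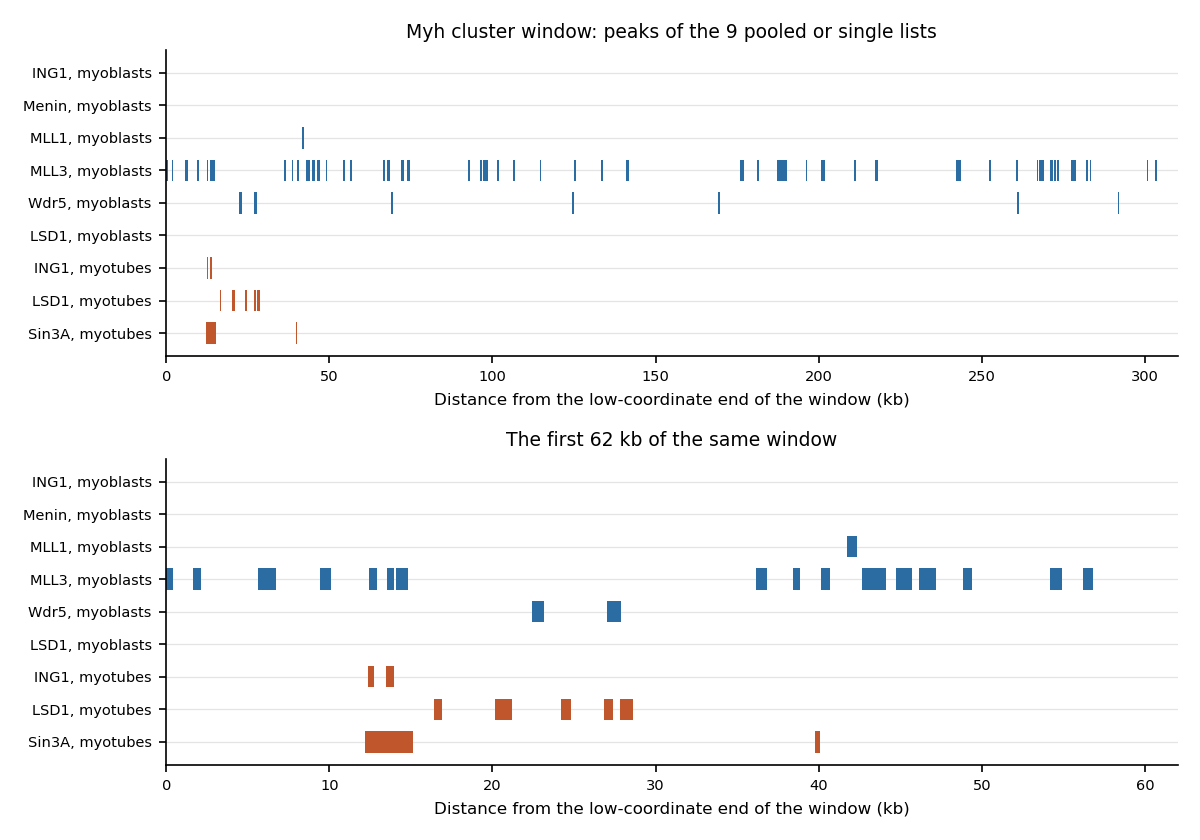
Peaks of the 9 pooled or single lists over the Myh cluster window of 310 kb (upper panel) and its first 62 kb (lower panel), drawn to scale as distance in kb from the low-coordinate end, blue for myoblasts and orange for myotubes. MLL3 peaks run along the whole window apart from gaps, and the 9 pooled or single myotube peaks stand near the low-coordinate end, with the 5 LSD1 peaks in a gap of MLL3.

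Among myotube factors the window peaks overlapped as follows. All 8 ING1 peaks overlapped a Sin3A peak (exact 95% interval 63.1 to 100%), against 79.7% of all ING1 myotube peaks. LSD1 lay at 6 of 8 ING1 peaks (75.0%, exact interval 34.9 to 96.8%), against 37.5% of all. When at least 50% of the shorter peak had to be shared, it lay at 37.5% of the window peaks. No whole-list share was taken under that stricter rule, so the equal percentages are not a like comparison. Of the 9 Sin3A peaks, 5 overlapped ING1 and 5 overlapped LSD1, against 52.5% and 29.1% of all Sin3A peaks. Of the 10 LSD1 peaks, 4 overlapped ING1 and 4 overlapped Sin3A, against 21.9% and 25.2% of all LSD1 peaks. Each of these background shares lay inside the exact interval of the window share. The intervals rest on few peaks and treat peaks that share a window as independent, so no verdict on a difference is drawn from them. The Sin3A peaks met a replicate list in 5 of 9 cases, against 63.4% over the whole list, and each time the list was replicate 1. Without Sin3A replicate 1, the union of ING1 replicate peaks in the windows, 2 peaks from replicate 1, met Sin3A at 0%. It could not do otherwise, because Sin3A replicate 2 held 0 peaks in the windows.

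Menin of myoblasts met the myotube peaks at Des alone, the one window where it was listed. There it lay at 1 of 2 ING1 peaks, 2 of 3 Sin3A peaks and 2 of 2 LSD1 peaks. The other 6 ING1, 6 Sin3A and 8 LSD1 peaks stood in windows with no Menin peak and could not overlap one. Over the 4 windows the shares were 12.5% of ING1, 22.2% of Sin3A and 20% of LSD1 peaks, against 85.3%, 67.8% and 43.3% of the whole lists. With peaks within 500 bp counted, the ING1 share was 25% and the Sin3A share 33.3%. With the wider 50% of each list they were 25% and 50%. That setting left only 3 ING1 peaks at Acta1 and 1 at Des, and 1 Sin3A peak at Myh, 1 at Acta1 and 2 at Des. Whole-list shares were not computed under either setting. The window shares restate the counts per window, and no test was made of them.

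Wdr5 of myoblasts lay at 4 of 8 ING1 peaks, 3 of 9 Sin3A peaks and 6 of 10 LSD1 peaks, against 83.5%, 64.9% and 28.8% of the whole lists. With the wider 50% of each list, which left fewer window peaks, Wdr5 lay at 25% of ING1 and 28.6% of LSD1 window peaks. With peaks within 500 bp counted it lay at 55.6% of Sin3A window peaks. Whole-list shares were not computed under these settings. None of the 14 Wdr5 peaks in the windows met a Wdr5 replicate list, however, which allows a share of up to 21.4%, against 16.8% of all Wdr5 pooled peaks. The MLL1 peak met none either, against 40.5% of all. MLL3 lay at 3 of 8 ING1 peaks, 2 of 9 Sin3A peaks and 1 of 10 LSD1 peaks, against 19.0%, 20.6% and 25.5%. These whole-list shares of Wdr5 and MLL3 lay inside the exact intervals of the window shares. Counted from MLL3, 3 of its 59 window peaks met ING1 of myotubes (5.08%, exact interval 1.06 to 14.1%), against 0.829% of all MLL3 peaks, and 4 of 59 met Sin3A (6.78%, exact interval 1.88 to 16.5%), against 1.33%. Both whole-list shares were below the interval. All but 1 of these MLL3 peaks per factor stood in the stretch of 2939 bp at the low end of the Myh window, so they are not independent of each other. With the wider 50% of each list no ING1 window peak met MLL3. LSD1 of myotubes met 1 of the 59, or 1.69%, the same as its share of all MLL3 peaks. Within myoblasts, MLL3 lay at 0 of 5 Menin peaks, which allows a share of up to 60%, and at 2 of 14 Wdr5 peaks, against 28.9% and 22.0% of the whole lists. Wdr5 lay at 1 of 5 Menin peaks, against 24.1%.

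**Figure D4:**
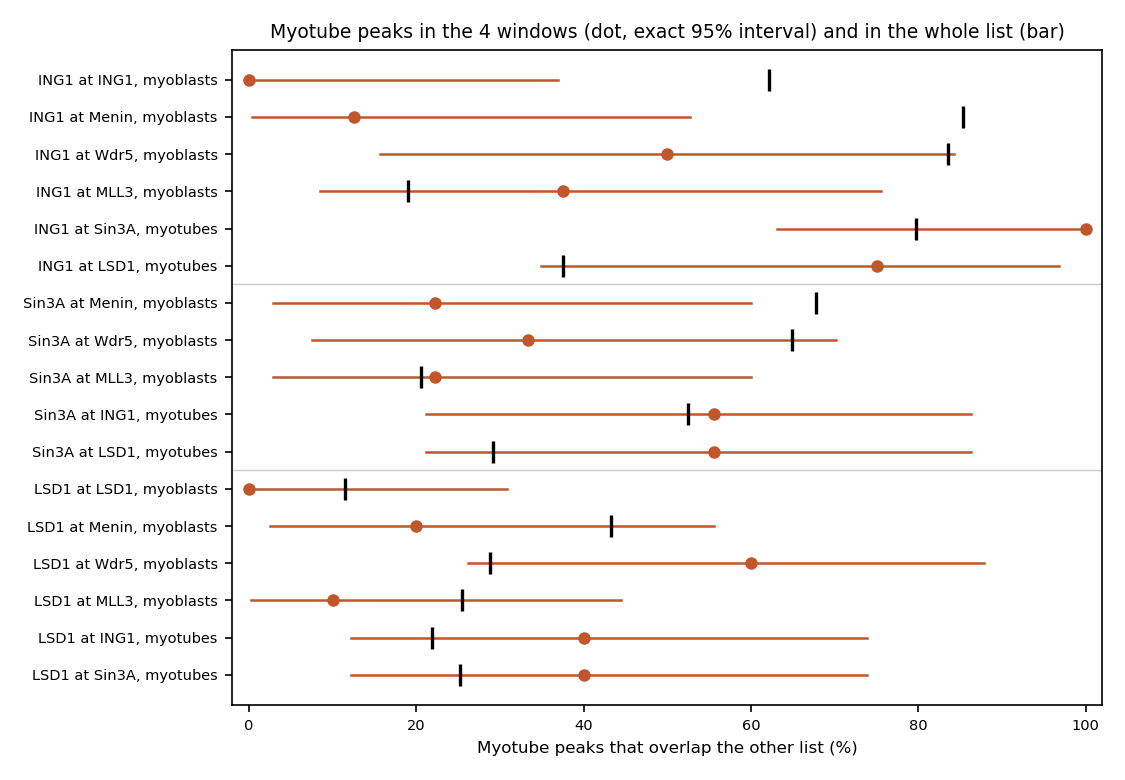
Percent of ING1, Sin3A and LSD1 myotube peaks that overlap each other list by at least 1 bp: dots are the peaks in the 4 windows (8, 9 and 10 peaks) with exact 95% binomial intervals as lines, and black bars are the whole lists. The lines cover counting error only and treat peaks that share a window as independent. The dots at 0% for ING1 and LSD1 at their own myoblast lists, and the low dots at Menin, reflect windows where those lists hold no peak, and in the remaining pairs the bar lies inside the line.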

How the data were processed

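Chromatin immunoprecipitation with sequencing had been run on 17 samples, grouped by title. The authors deposited peak boundaries in bp, per the file headers, with no height, fold or significance. Per the submitters' processing notes, Bowtie 0.12.9, SAMtools 0.1.19 and bedtools 2.17.0 are named, with the builds mm9 and NCBIM37 and no roles stated. The MLL1 samples carry Menin as source name, and were grouped by their title and antibody. Neither the peak caller and threshold nor the pooling of replicates is given in the sources used here. Short lists occur in both states. In myotubes they are replicate 2 of Sin3A (430 peaks) and replicate 3 of ING1 (126), and in myoblasts replicate 1 of ING1 (428) and replicate 2 of MLL1 (466). The lists hold no read counts, so depth is unknown, and a longer list meets more windows.

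Starts are taken as 0-based and printed 1-based. Peaks on chromosomes 1 to 19 and X were used, with mitochondrial peaks left out. Peaks overlapped when they shared at least 1 bp, checked on simulated intervals. Coverage was taken over 2571 Mb between the first and last peaks. Intervals are exact Clopper-Pearson 95% intervals, and the limit for a count of 0 is 3 counts of the total (Python 3.11.15, scipy 1.17.1). ING1 lists were compared by exact permutation. Genes and the windows around them were chosen with earlier results of these data known. Named peaks were the widest of each list in each window and stretches where a peak met at least 4 of the 9 lists. Stretches were joined from overlapping peaks of the 9 lists. Other muscle genes had been planned but need an mm9 annotation, not used here. Alternatives were other overlap rules, the wider 50% of each list, windows extended by 10 kb, unions of replicate lists, leaving out replicates and, added after the data were seen, the same rules for further pairs and pooled peaks with replicate support.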

Additional observations from a re-analysis of the deposited data

How the results depend on the processing

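The ING1 difference per replicate list, myotubes minus myoblasts, ran from 0 to 1 peaks and from 0 to 0.0462% of the list when 1 replicate was left out, and was 0 without ING1 myotube replicate 1. It was 0 peaks and 0% with the wider 50% of each list. With a replicate block over the numbers that both states share it was 1 peak and 0.0462% (exact sign-flip p = 1). As replicate 2 held 0 peaks in both states, the sign-flip test could give no other value. Nothing in the labels ties same-numbered lists to one culture, and the windows hold too few peaks to check the pairing. The LSD1 difference of 10 peaks was 7 with the wider 50% of each list, 9 with windows extended by 10 kb and 4 with lists of equal length. MLL3 coverage of the 4 windows, 10.9% of bases, was 6.96% with the wider 50% of its list and 12.3% with extended windows. The share of ING1 peaks at Sin3A was 75% to 100% under other overlap rules, the wider 50% of each list and the union of replicate lists. The wider 50% left 3 ING1 peaks at Acta1 and 1 at Des, and the union held 2 ING1 peaks. Over unions with 1 replicate left out the share ran from 0 to 100%, with 0 without Sin3A replicate 1, which leaves replicate 2 with no window peak. No value existed without ING1 myotube replicate 1. The share of ING1 myoblast peaks kept in myotubes had no value, as no such peak lay in the windows. Menin at MLL3 was 0% to 20%. LSD1 kept from myoblasts stayed at 0% in the 3 alternatives run. It could not do otherwise, because the nearest LSD1 myoblast peak lay 6.88 kb outside a window. Of the 36 counts per list and window, 24 stayed within 1.5 times with the wider 50% of each list and 29 with extended windows. Of the 24 counts with replicate lists, 14 did when pooled peaks had to meet one. A count of 0 cannot change when peaks are taken away. Most counts that stayed with the wider 50% or with replicate support were 0. Of the counts above 0, replicate support kept within 1.5 times only those of Sin3A at Acta1 and at Des, each 2 of 3.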

Other observations

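The lists differed in how many peaks lay in the flanks of the windows, and they also differed in length. Over all chromosomes MLL3 had 84.9 peaks per Mb, Menin 27.2, Wdr5 23 and MLL1 3.46. ING1 had 3.19 in myoblasts and 3.77 in myotubes, LSD1 1.73 and 6.42, and Sin3A 5.48. The flank counts were not tested against these densities. Within 10 kb outside the 4 windows MLL3 had 20 further peaks, of which 7 flanked the Myh window, 5 Acta1, 5 Ckm and 3 Des. Menin had 5, of which 3 flanked the Myh window and 2 Des. Wdr5 had 4, and MLL1 and LSD1 of myoblasts had 1 each, both beside Des. ING1 in either state, Sin3A, and LSD1 of myotubes had 0. The Ckm window, which held no MLL3 peak, thus had 5 MLL3 peaks in its flanks. At Des the LSD1 myoblast peak of 421 bp lay above the window, and the MLL1 peak of 367 bp lay 7.91 kb above it. In the RefSeq order of GRCm38.p6 the next protein-coding gene above Des is Speg, a muscle kinase gene.

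Sin3A replicate 1 listed a peak of 784 bp at chr11:67013584-67014367, in the Myh window, that the pooled Sin3A list does not hold. It overlapped the MLL3 myoblast peak at 67013274 to 67013947. It was chosen for mention after its values were seen.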
